A study of Mus musculus with 9 samples.

Results

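The transcripts of the proteasome genes were examined in TtT/GF cells, a mouse pituitary cell line of folliculostellate type, left untreated or given the adenosine analog NECA. All probe sets were taken whose single annotated symbol begins with Psma to Psmg followed by a digit. These were 58 of the 12488 probe sets on the array, for 46 of the 8251 genes that have a probe set with a single symbol. Of the 58, 56 belong to 44 genes of proteasome subunits, regulators or assembly factors. The other 2, for Psmc3ip and Psme3ip1, match the pattern by name only: the first encodes a recombination protein and the second a partner of a proteasome activator.

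The samples were 9 Affymetrix MG_U74A v2 arrays, 3 in each of 3 groups: no treatment, 10 µM NECA (5'-N-ethylcarboxamidoadenosine) for 30 min, and 10 µM NECA for 120 min. All cells were of the same line and were cultured in medium with heat-inactivated serum. The design text calls the 3 samples of a group replicate cultures of this 1 line. Neither a vehicle nor a culture time is given for the controls, so handling and NECA cannot be told apart at either time. Values are MAS5 signals, which give 1 summary of probe brightness per probe set on a linear scale. No test compared levels between different probe sets, and marker signals were summed only to describe the arrays. Signals come from RNA of whole cultures, so fewer cells with a transcript and less of that transcript per cell cannot be told apart.

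The 26S proteasome degrades proteins tagged with ubiquitin. Its 20S core is a barrel of alpha and beta rings, with the proteolytic sites inside on the beta subunits encoded by Psmb5, Psmb6 and Psmb7. Interferon can replace these with the immunoproteasome subunits encoded by Psmb8, Psmb9 and Psmb10. A 19S cap, built of the Psmc ATPases and the Psmd non-ATPase subunits, recognises ubiquitin chains, unfolds the substrate and feeds it into the core. Nfe2l1 and Nfe2l2 encode transcription factors known to act on proteasome genes through antioxidant response elements.

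The array medians lay between 33.1 and 38.3, and the 2% trimmed means between 100.056 and 100.065. NECA 30 min replicate 3 stood somewhat apart, with a median correlation of 0.943 with the other arrays across tested probe sets, against 0.954 to 0.966 for the other 8. RNA quality can be read from the Gapdh signal of the 3' over the 5' probe set, a ratio that rises as RNA breaks down. It was lowest in NECA 30 min replicate 3, at 0.879, and lay between 0.925 and 1.02 in the others. The group means were 0.995 ± 0.028 without NECA, 0.921 ± 0.038 after 30 min and 0.947 ± 0.029 after 120 min of it (SD, n = 3 each), and the part of this ratio in the results was not tested. Of 7 folliculostellate markers 5 were above the filter used here, among them S100b and the connexin 43 gene Gja1, while Vim and Sox2 were not. The summed signal of the 7 was 1295 to 1717 in untreated arrays, 1521 to 1743 at 30 min and 1983 to 2161 at 120 min, most of it from Gja1. At 120 min Gja1 was at 0.61 ± 0.15 on the log2 scale (SE, limma adjusted p = 0.0527), while the other 4 tested markers had negative changes, with S100b, Aldh1a1 and Cryab below all untreated arrays. Of 6 macrophage and leukocyte markers 2, Cd68 and Cd14, were above the filter, and Ptprc, Itgam, Adgre1 and Csf1r were not. The sum of all 6, most of it from Cd68 and Cd14, was 778 to 817 in untreated arrays. It was 855 to 1036 at 30 min and 840.3 to 1096 at 120 min. At 120 min Cd14 was at 0.53 ± 0.14 and Cd68 at -0.01 ± 0.15 (SE, limma adjusted p = 0.0658 and 0.993). Of 7 pituitary hormone cell markers 5 were above the filter, namely Gh, Prl, Pomc, Cga and Lhb. The sum of the 7 was 298 to 325 in untreated arrays, 247 to 310 at 30 min and 190 to 309 at 120 min. Untreated means of Lhb (102) and Gh (86.4) were above that of S100b (57.8), and those of Prl, Pomc and Cga were below it. Of 4 endothelial markers 1, Pecam1, was above the filter. In all these lists 0 genes were called by limma in any comparison, and their part in the results was not tested.

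Testing was limited to probe sets with a signal above 20.5 in 3 or more arrays. This left 49 of the 58 for 42 genes, and all 49 were above that level in all 9 arrays. The other 9 had signals of 0.272 to 29.1, and 2 of them, further probe sets of Psmb1 and Psmb4, were above the level in some array. The 4 genes left without a tested probe set were Psmb9, Psmc4, Psmd2 and Psmc3ip. Psmb9, the inducible counterpart of the Psmb6 subunit, read 7.23, 6.68 and 6.32 in untreated cells, 5.5, 3.59 and 11.8 at 30 min and 8.05, 5.88 and 6.08 at 120 min. No group of Psmb9 arrays stood apart at these low signals. Psmc4 and Psmd2, which encode constant parts of the 19S cap, also read low, at 4.41 to 15.3 and 1.70 to 7.09 over the 9 arrays, so a low reading here does not show that a transcript is missing.

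Neither time of NECA moved a proteasome transcript past the test. With limma and Benjamini-Hochberg adjustment over all 7851 tested probe sets, 0 of 49 proteasome probe sets were higher and 0 lower at 30 min, where 0.357% and 0% of all tested probe sets were called. At 120 min 0 were higher and 0 lower, where 1.83% and 1.54% of all were called. With no adjustment, 5 had a p under 0.05 on the high side and 4 on the low side at 30 min (3.87% and 4.7% of all). At 120 min these were 4 and 1 (6.42% and 8.93% of all). The F-test over the 3 groups called 0 of 49, against 3.1% of all, and 10 of 49 had an unadjusted p under 0.05, against 14.4% of all. Nothing in the labels says more of the replicates than that they are separate cultures, so the p-values measure the spread between these samples.

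How large a change the arrays could have hidden is given by the 95% intervals. At 120 min the interval lay within 1 log2 unit of 0, a 2-fold change, for 48 of the 49 (86.8% of all tested probe sets), Psmd5 being the exception. At 30 min this held for 45 of 49 (90.1% of all), the exceptions being Psma4, Psmb7, Psmd10 and Psmd5. Within 1.5-fold the numbers were 25 of 49 at 30 min (53.5% of all) and 23 of 49 at 120 min (49.2% of all). For the rest a change of 1.5-fold lies within the interval. The median log2 change of the 49 was 0.03 at 30 min and 0.08 at 120 min, where the medians of all tested probe sets were -0.04 and -0.04.

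**Figure D1:**
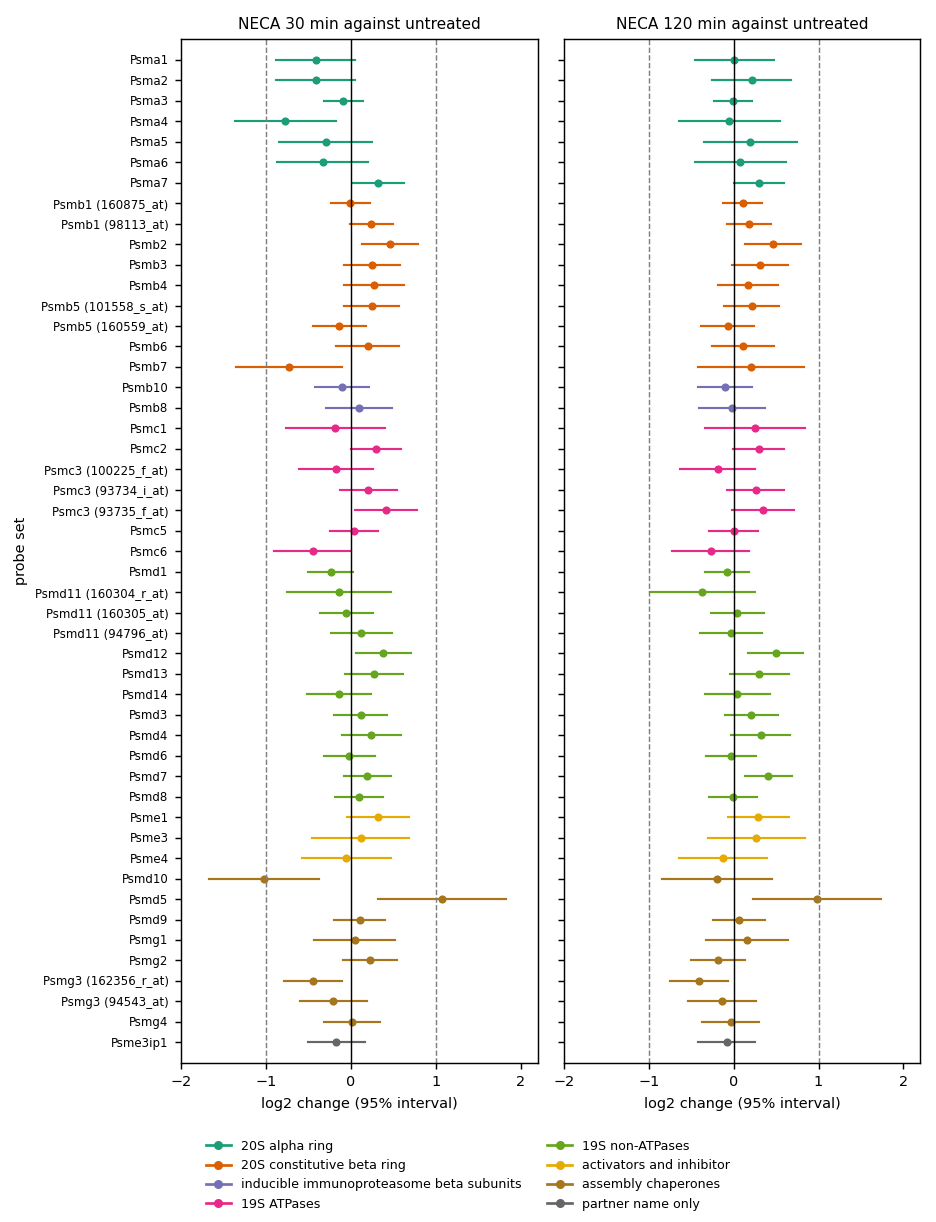
Log2 change of the 49 tested probe sets at 30 min (left) and 120 min (right) of NECA against untreated cells; points are limma estimates from all 9 arrays, bars are 95% intervals, colours are role classes and dashed lines mark 1 log2 unit. At 120 min every bar but that of Psmd5 lies between the dashed lines, and at 30 min those of Psma4, Psmb7, Psmd10 and Psmd5 cross them.

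The alpha ring forms the gates of the core and makes contact with the caps. Its 7 tested probe sets, for Psma1 to Psma7, had changes of -0.78 to 0.32 at 30 min with a median of -0.33, and 6 of the 7 were negative. At 120 min they lay between -0.05 and 0.30 with a median of 0.08. Psma4 read 427, 428 and 459 in untreated cells, 215, 432 and 172 at 30 min and 453, 499 and 330.4 at 120 min. Its low values were those of replicates 1 and 3 at 30 min, while replicate 2 lay within the untreated range. The log2 change of Psma4 at 30 min was -0.78 ± 0.27 (SE, adjusted p = 0.543).

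Psma2 showed the same division within the 30 min group. It read 843, 737 and 794 in untreated cells, 566, 871 and 418 at 30 min and 807, 987 and 967 at 120 min. Replicates 1 and 3 at 30 min were below every other array and replicate 2 was above all untreated arrays. Its log2 change was -0.41 ± 0.21 at 30 min and 0.21 ± 0.21 at 120 min (SE, adjusted p = 0.590 and 0.656). Psma7 differed from its neighbours in the ring: it read 361, 332 and 425 in untreated cells, 500.3, 411 and 491 at 30 min and 426, 454 and 493 at 120 min. At 120 min its arrays all lay above the untreated ones by a small margin, and its change was 0.30 ± 0.14 (SE, adjusted p = 0.329). Psma3 was among the steadiest members, between 1007 and 1174 in all 9 arrays.

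The constitutive beta ring had 9 tested probe sets for 7 genes. Of the 9, 6 changes were positive at 30 min and 8 at 120 min, with medians of 0.24 and 0.18. Psmb2, a beta subunit without a proteolytic site, read 393, 400.05 and 386 in untreated cells, 546, 479 and 611 at 30 min and 448, 546 and 661 at 120 min. All 6 treated arrays lay above all 3 untreated ones. Its log2 change was 0.46 ± 0.15 at both times (SE), with adjusted p-values of 0.531 and 0.156, a 1.37-fold and a 1.38-fold difference on the scale with offset.

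For Psmb5, which encodes the chymotrypsin-like subunit, the probe set of the s_at type read 666, 550.2 and 715 in untreated cells, 739, 647 and 920.2 at 30 min and 751, 729 and 747 at 120 min. At 120 min its arrays were all above the untreated ones, with a change of 0.21 ± 0.15 (SE, adjusted p = 0.515). The second probe set of Psmb5 read 59.3, 71.7 and 56.0 in untreated cells, 60.6, 54.2 and 52.2 at 30 min and 62.6, 61.3 and 52.7 at 120 min. Its change was -0.07 ± 0.14, so the 2 probe sets differ in sign. Psmb6, of the caspase-like subunit, read 359.6, 315 and 321 in untreated cells, 388, 301 and 472 at 30 min and 307, 389 and 383 at 120 min, with overlapping groups.

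Psmb7, of the trypsin-like subunit, read 340.0, 375 and 329.9 in untreated cells, 219, 344 and 115 at 30 min and 364, 390.1 and 453 at 120 min. As with Psma4, replicates 1 and 3 at 30 min were low and replicate 2 was not. The change of Psmb7 was -0.73 ± 0.29 at 30 min and 0.20 ± 0.29 at 120 min (SE, adjusted p = 0.552 and 0.765). Psmb7 was measured by a probe set of the f_at type, which in Affymetrix naming can also bind related transcripts, as were 5 other tested members, 2 of them for Psmc3 and 1 each for Psma3, Psmb4 and Psmd12.

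The first of 2 tested probe sets of Psmb1 read 786, 864 and 868 in untreated cells, 869, 793 and 844 at 30 min and 902, 898 and 907 at 120 min. The second read 493, 445 and 521, then 583, 533 and 609, and then 544, 541 and 569.9. With both, the arrays at 120 min lay above all untreated ones, by 0.11 ± 0.11 and 0.18 ± 0.12 on the log2 scale (SE, adjusted p = 0.657 and 0.481). Psmb3 was at 0.31 ± 0.15 at 120 min (adjusted p = 0.351). Psmb4, tested with 1 of its 3 probe sets, read 1019, 778 and 985 in untreated cells, 1177, 902 and 1295 at 30 min and 993, 949 and 1183 at 120 min. Its groups overlapped, and its change at 120 min was 0.17 ± 0.16 (adjusted p = 0.636).

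Of the immunoproteasome subunits, Psmb8 and Psmb10 were tested. Psmb8, the inducible counterpart of the Psmb5 subunit, read 28.7, 37.2 and 43.4 in untreated cells, 36.6, 34.7 and 46.9 at 30 min and 35.7, 32.3 and 38.6 at 120 min. Psmb10, the counterpart of the Psmb7 subunit, read 84.1, 120.04 and 117 in untreated cells, 104, 92.7 and 96.6 at 30 min and 103, 96.1 and 95.1 at 120 min. In both genes the treated arrays lay within or close to the untreated range. The log2 change of Psmb8 at 120 min was -0.02 with a 95% interval of -0.41 to 0.37, and that of Psmb10 was -0.10 with an interval of -0.42 to 0.22. Among 9 tested interferon and antigen presentation genes, 0 were called at 30 min, and 0 were called higher and 1 lower at 120 min. The one called was Pdia3, a thiol oxidoreductase of the peptide-loading complex, at -1.10 ± 0.27 (SE, limma adjusted p = 0.0465). That call did not hold with no filter (0.101), with no intensity trend (0.0705), or when any 1 array was left out other than replicate 1 or replicate 2 of the 30 min group, where it reached 0.203. Irf1, an activator of immunoproteasome genes, was at -0.35 ± 0.15 at 30 min and 0.08 ± 0.15 at 120 min (SE, limma adjusted p = 0.557 and 0.825). Its 30 min arrays lay below all untreated arrays. Its difference at 120 min against 30 min was 0.43 ± 0.15 (SE, limma adjusted p = 0.206).

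**Figure D2:**
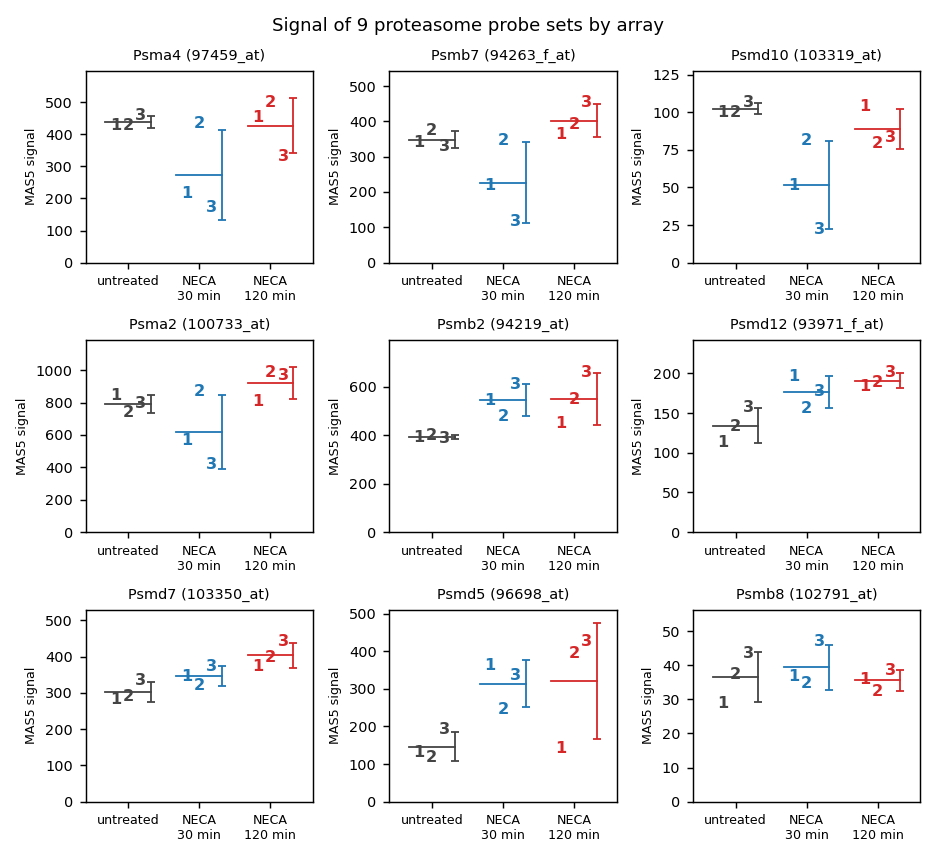
MAS5 signal of 9 proteasome probe sets in the 3 groups; each digit is 1 array and gives its replicate number, the line is the group mean and the bar to its right 1 SD (n = 3). In Psma4, Psmb7, Psmd10 and Psma2 replicates 1 and 3 at 30 min lie below replicate 2, while Psmb2 lies higher in all 6 treated arrays and Psmb8 overlaps between groups.

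The 19S ATPases, which unfold the substrate, had 7 tested probe sets for 5 genes with median changes of 0.03 at 30 min and 0.25 at 120 min. Psmc2 read 494, 424 and 502 in untreated cells, 581, 543 and 616 at 30 min and 493, 614 and 644 at 120 min. Of the treated arrays only 120 min replicate 1 lay within the untreated range, and the change of Psmc2 was 0.29 ± 0.14 at both times (SE, adjusted p = 0.577 and 0.330). Psmc3 had 3 tested probe sets. The first read 152, 137 and 166 in untreated cells, 204, 164 and 252 at 30 min and 168, 214 and 203 at 120 min. The second read 115, 115 and 149.6, then 143, 125 and 171, and then 149, 163 and 143. The third read 57.5, 54.0 and 49.4, then 43.6, 39.9 and 57.4, and then 62.5, 33.2 and 46.1. Their changes were 0.41, 0.20 and -0.18 at 30 min and 0.35, 0.26 and -0.19 at 120 min, so the third opposed the others. Psmc5 read 243, 208 and 241 in untreated cells, 225, 219.5 and 267 at 30 min and 248, 218 and 226 at 120 min, with changes of 0.03 and 0.00. Psmc6 read 1169, 1167 and 997 in untreated cells, 826, 1138 and 561 at 30 min and 862, 1026 and 874 at 120 min. Replicates 1 and 3 at 30 min were below all untreated arrays and replicate 2 was among them, with a change of -0.45 ± 0.21 (SE, adjusted p = 0.577).

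The 12 probe sets of 19S non-ATPase subunits had medians of 0.10 at 30 min and 0.04 at 120 min. Psmd12, a scaffold subunit of the lid, read 112, 133 and 157 in untreated cells, 196, 155 and 177 at 30 min and 183, 188 and 202 at 120 min. The 120 min arrays lay above all untreated arrays, and those at 30 min overlapped with them by 1 array. Its change at 120 min was 0.49 ± 0.15 (SE), a 1.41-fold difference. Its adjusted p of 0.111 was the smallest of any proteasome probe set against untreated cells. Psmd7, a lid subunit that pairs with the deubiquitinase encoded by Psmd14, read 281, 291 and 334 in untreated cells, 345, 319.7 and 374 at 30 min and 374, 397 and 441 at 120 min. Its groups did not overlap at 120 min, where the change was 0.41 ± 0.13 (SE, adjusted p = 0.132).

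Psmd14, the deubiquitinase gene of the lid, was at -0.14 ± 0.17 and 0.04 ± 0.17 (SE, adjusted p = 0.771 and 0.929). Psmd4, which encodes a ubiquitin receptor of the cap, was at 0.24 ± 0.16 and 0.32 ± 0.16 (SE, adjusted p = 0.635 and 0.372). The lid gene Psmd11 had 3 tested probe sets. The first read 82.5, 101 and 80.2 in untreated cells, 71.4, 71.3 and 95.3 at 30 min and 89.7, 34.1 and 90.8 at 120 min. The second read 174, 166 and 193, then 190.2, 181 and 145, and then 207, 172 and 173. The third read 632, 572 and 447, then 541, 646 and 600.03, and then 452, 516 and 647. All 3 overlapped between groups, with changes of -0.14, -0.05 and 0.12 at 30 min and of -0.37, 0.04 and -0.03 at 120 min.

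At 30 min the widest swings were those of Psmd5, upward, and Psmd10, downward, which encode assembly chaperones for the cap. Psmd9, a gene of the same kind, was at 0.10 ± 0.14 at 30 min and 0.06 ± 0.14 at 120 min (SE, limma adjusted p = 0.799 and 0.863). Psmd5 read 131, 117 and 191 in untreated cells, 363, 244 and 335 at 30 min and 142, 395 and 425 at 120 min. All 30 min arrays and 120 min replicates 2 and 3 lay above the untreated ones, and 120 min replicate 1 lay among them. The log2 change of Psmd5 was 1.07 ± 0.34 at 30 min and 0.98 ± 0.34 at 120 min (SE, adjusted p = 0.512 and 0.193), a 2.1-fold and a 1.97-fold difference. Without NECA 120 min replicate 1 the change at 120 min was 1.47 ± 0.22 (SE, limma adjusted p = 0.00581, where 1.58% of all were called higher).

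Psmd10, which encodes the chaperone also known as gankyrin, read 100.1, 99.98 and 106 in untreated cells, 51.5, 80.9 and 22.1 at 30 min and 104, 78.9 and 83.2 at 120 min. All 30 min arrays were below all untreated arrays, but they spread from 22.1 to 80.9. Its change was -1.02 ± 0.30 at 30 min and -0.20 ± 0.30 at 120 min (SE, adjusted p = 0.4 and 0.783). Of the Psmg chaperones of the core, Psmg3 had a probe set of the r_at type at 235, 221 and 173 in untreated cells, 148, 147 and 157 at 30 min and 188, 138 and 141 at 120 min. Its change was -0.44 ± 0.16 and -0.41 ± 0.16 (SE, adjusted p = 0.545 and 0.231). The second probe set of Psmg3 read 73.0, 94.7 and 75.4, then 72.2, 61.0 and 73.6, and then 97.7, 65.1 and 59.0, with changes of -0.21 ± 0.18 and -0.14 ± 0.18.

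Of the activators, which open the core, 3 genes were tested. Psme1, induced by interferon in many cells, read 159, 153 and 181 in untreated cells, 209.7, 169 and 246 at 30 min and 168, 226 and 216 at 120 min. Psme3 read 93.4, 52.6 and 75.4, then 76.9, 88.0 and 71.5, and then 54.8, 96.1 and 128. Groups overlapped in both, and the changes at 120 min were 0.29 ± 0.17 for Psme1, 0.27 ± 0.26 for Psme3 and -0.13 ± 0.24 for Psme4 (SE).

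**Figure D3:**
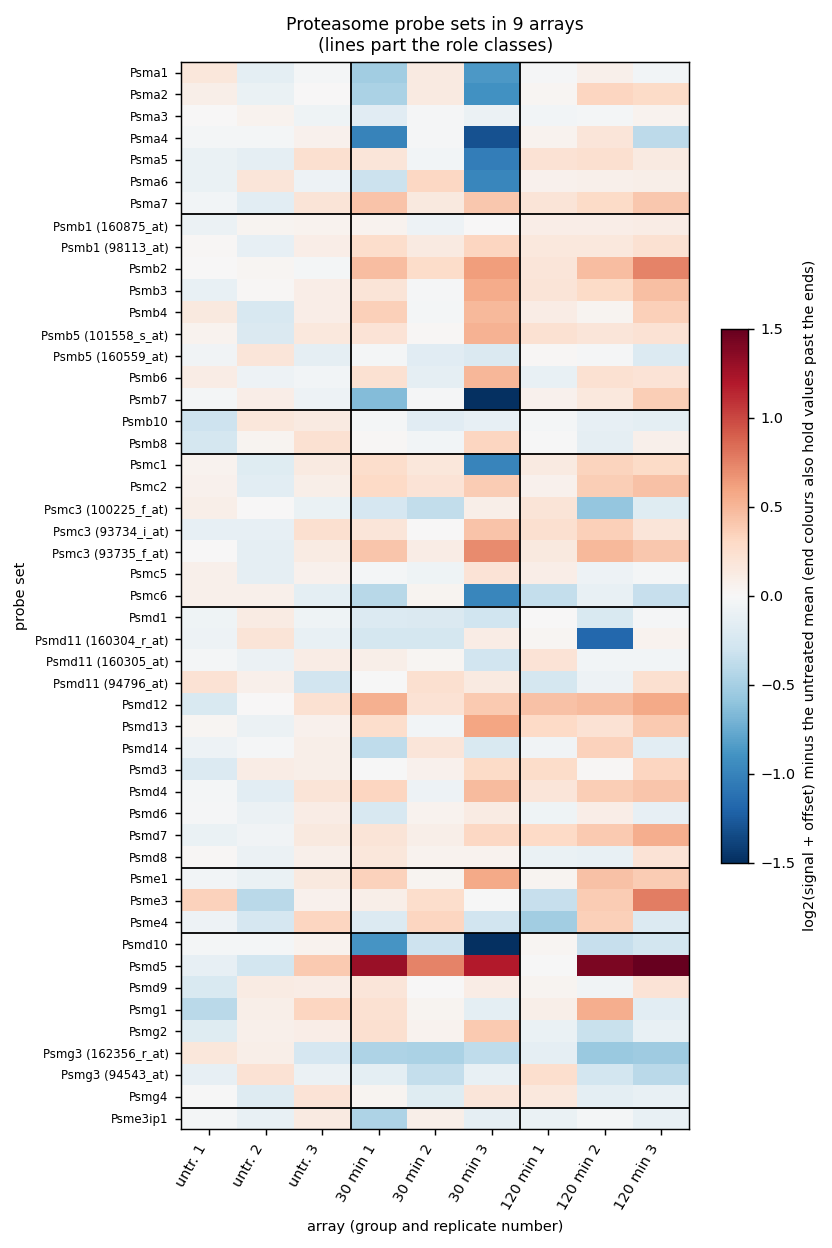
Log2(signal + offset) of the 49 tested probe sets (rows, parted by role class) in the 9 arrays (columns), as a difference from the mean of the 3 untreated arrays; red is higher and blue lower, and the end colours also hold values past the ends. In the column of NECA 30 min replicate 3 the members divide into high and low ones, with 5 of 7 alpha ring probe sets at their lowest there.

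NECA 30 min replicate 3 held the lowest of the 9 values for 12 of the 49 probe sets and the highest for 14. Over all tested probe sets these shares were 18.6% and 22.8%, against 24.5% and 28.6% of the 49. The lowest values included Psma1, Psma2, Psma4, Psma5 and Psma6 of the alpha ring, and the highest included Psmb3, Psmb4 and Psmb6 of the beta ring. Between replicates 2 and 3 at 30 min, 18 of the 49 differed by over 0.5 on the log2 scale (36.7%, against 27.5% of all). Between any pair of untreated arrays at most 2 did (4.08%, against 8.93% to 11.2% of all). Other arrays also held many extremes: untreated replicate 2 was lowest for 13 of the 49 (26.5%, against 9.54% of all), untreated replicate 1 was lowest for 10 (20.4%, against 9.77%) and NECA 120 min replicate 3 was highest for 13 (26.5%, against 9.67%).

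The choice of arrays decided the calls at 30 min. Without NECA 30 min replicate 2, 3 proteasome probe sets were called lower, where 0.586% of all were: Psma4 at -1.15 ± 0.18, Psmd10 at -1.38 ± 0.25 and Psmb7 at -1.09 ± 0.22 (SE, limma adjusted p = 0.0183, 0.0275 and 0.0459). Without replicate 1 or replicate 3 of that group, 0 were called.

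Between the 2 times of NECA, 0 of 49 were called higher and 0 lower at 120 min against 30 min, where 1.35% and 1.62% of all tested probe sets were. With no adjustment, 4 had a p under 0.05 on the high side and 1 on the low side (6.02% and 6.97% of all). The 4 were Psmb7 at 0.93 ± 0.29, Psmd10 at 0.83 ± 0.30, Psma4 at 0.72 ± 0.27 and Psma2 at 0.63 ± 0.21 (SE, limma adjusted p = 0.149, 0.235, 0.260 and 0.202). The one lower was Psmg2, a core assembly chaperone, at -0.41 ± 0.15 (adjusted p = 0.230). Without NECA 30 min replicate 2, 5 were called higher, where 2.25% of all were: those 4 and Psma1, with adjusted p-values from 0.00594 to 0.0336. This comparison uses the same 30 min arrays as the one before, so it is not a second line of evidence for the low values there. All 3 arrays of one time lay above those of the other for 2 of 49 at 120 min (7.44% of all) and below for 1 (9.07% of all). The 95% interval of this difference lay within 2-fold for 43 of 49 (87.6% of all) and within 1.5-fold for 34 (52.8% of all). The change was positive for 61.2% of the 49 and 48.6% of all.

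At 120 min the proteasome probe sets lay more on the high side than the array as a whole, within small sizes. For 11 of the 49 (22.4%) all 3 arrays at 120 min were above all 3 untreated arrays, where 12.3% of all tested probe sets were so placed. For 0 of 49 they were all below, where 13% of all were. The 11 had changes of 0.11 to 0.49. They included the s_at probe set of Psmb5, both tested ones of Psmb1 and the first of Psmc3 as described above. The rest were those for Psma7, Psmb2, Psmb3, Psmc1, Psmd7, Psmd12 and Psmd13. Further tested probe sets of these genes overlapped with untreated cells, at -0.07 for Psmb5 and at 0.26 and -0.19 for Psmc3. At 30 min 4 of 49 lay all above (6.11% of all) and 3 all below (8.65% of all). The share with a positive change was 53.1% of the 49 and 44.3% of all at 30 min, and 61.2% of the 49 and 43.5% of all at 120 min. The 49 were above the filter in all 9 arrays, which was not required of the other probe sets. The mean array median was 37.4 without NECA and 34.5 at 120 min. What signal level and scaling add to these shares was not tested. Subunits that are built into 1 complex share arrays and scaling here, so their count is a description with no test.

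**Figure D4:**
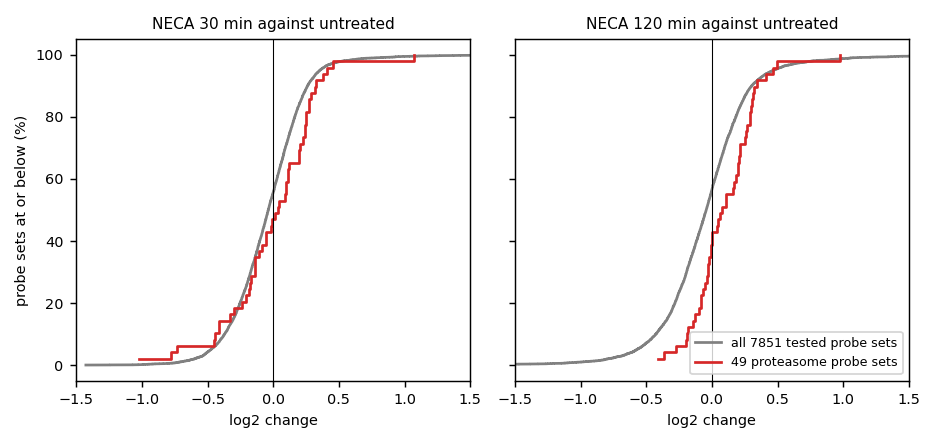
Cumulative share of probe sets (vertical axis, percent) at or below each log2 change (horizontal axis) for the 49 proteasome probe sets and all 7851 tested ones, at 30 min (left) and 120 min (right) against untreated cells. At 120 min the proteasome curve lies to the right through the middle of its range, with a median of 0.08 against -0.04, and has no value under -0.41.

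Of 40 other genes of the ubiquitin-proteasome system that were listed, 25 were on the array and tested. At 30 min 0 were called. At 120 min 1 was called higher, 0 lower and 24 did not pass, with a median change of -0.02. The one that rose was Nfe2l2, which encodes the NRF2 factor. It read 399.7, 378 and 383 in untreated cells, 409, 462 and 399.9 at 30 min and 574, 642 and 629 at 120 min. All 120 min arrays lay above all other arrays, and the change was 0.66 ± 0.12 (SE, limma adjusted p = 0.00701). Nfe2l1, known as an activator of proteasome genes when the proteasome is inhibited, was at -0.15 ± 0.14 (adjusted p = 0.621).

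Promoter sequences from RefSeq (GRCm38.p6), 250 bases before to 50 after each start, were found for 39 of the 46 genes, in 42 windows. The antioxidant response element core TGACNNNGC, searched on both strands, was in 6 of the 42 (14.3%, against 12.4% of all 32851 promoter windows): those of Psmb5, Psmb6, Psmc6, Psmd9, Psmd12 and Psme4. The cAMP response element TGACGTCA was in 0 of 42, against 1.79% of all. The CCAAT box, CCAAT on both strands, was in 15 of 42 (35.7%, against 37.4% of all), and none of these was a window with the antioxidant core. Shares in proteasome promoters were thus close to those of all promoters. The first 3 stretches below are shown because they hold the antioxidant core in the windows of 2 genes of proteolytic subunits and of the member with the smallest p at 120 min. For Psmb6 the core ends just before the start used for the window, but lies within the gene as the RefSeq gene table bounds it, which begins further upstream. The other 3 are shown because they hold CCAAT boxes before the starts of members that were low in replicates 1 and 3 at 30 min. All are written 5′ to 3′ on the gene's strand, and capitals mark the matched motif on either strand. They lie at chr14:54618004-54618072 (minus strand, Psmb5), chr11:70525318-70525356 (plus, Psmb6), chr11:107479278-107479319 (plus, Psmd12), chr7:114276180-114276272 (minus, Psma1), chr13:14613158-14613222 (plus, Psma2) and chrX:140956712-140956961 (minus, Psmd10).
Psmb5: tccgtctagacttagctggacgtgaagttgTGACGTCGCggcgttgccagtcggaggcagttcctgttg
Psmb6: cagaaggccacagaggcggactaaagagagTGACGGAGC
Psmd12: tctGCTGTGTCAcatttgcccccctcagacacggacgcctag
Psma1: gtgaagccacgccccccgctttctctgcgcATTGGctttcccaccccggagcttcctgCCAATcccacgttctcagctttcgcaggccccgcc
Psma2: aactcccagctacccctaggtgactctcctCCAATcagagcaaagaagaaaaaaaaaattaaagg
Psmd10: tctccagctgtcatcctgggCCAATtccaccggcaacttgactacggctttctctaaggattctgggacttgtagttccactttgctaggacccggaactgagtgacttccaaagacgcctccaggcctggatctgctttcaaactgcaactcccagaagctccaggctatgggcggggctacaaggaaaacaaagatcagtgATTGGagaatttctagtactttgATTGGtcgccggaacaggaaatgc
A match says only that these letters stand in the window. Of the members that were low in replicates 1 and 3 at 30 min, Psma4 and Psmc6 have windows without CCAAT. Psmb7 is not among the genes with a match either. The box is thus not shared by all of these members.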

How the data were processed

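Values are as deposited: for each probe set, a linear intensity per array, made by the authors with MAS5 per the submitters' processing notes (no version is given there). The authors' scaling was kept. Of 12488 probe sets, 66 controls served only as checks. Symbols came from GEO's platform annotation, and all 58 member gene IDs were found in the RefSeq gene table.

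Signals were turned into log2(signal + 7.93), the 25th percentile of all values, so folds of dim probe sets are understated. A probe set was tested if above 20.5, the 40th percentile, in at least 3 arrays. The test was limma 3.58.1 in R 4.3.3 on all 9 arrays, with an intensity trend in eBayes, two-sided, and Benjamini-Hochberg adjustment per comparison at 0.05. It was tested on simulated data. An exact permutation test of 3 against 3 arrays cannot go below p = 0.1. Given in every array are the 2 tested members with the smallest F-test p in each role class, the proteolytic and inducible subunits and every gene with several probe sets; of the other ubiquitin-proteasome genes, those past the threshold. Other genes named, such as Psma7, Psmc6, Psmd4, Psmd14, Nfe2l1, Irf1 and Pdia3, were chosen after their values were seen. The members and lists were chosen with earlier results of these data known. Alternatives covered the offset, filter, scaling, trend, groups in the fit, a replicate block and each array left out. The number of arrays limits the precision.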

Additional observations from a re-analysis of the deposited data

How the results depend on the processing

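Counts of 0 called proteasome probe sets in each of the 3 comparisons and in the F-test were unchanged with the offset divided by 2 or multiplied by 4, no filter or a stricter filter, quantile normalization, centring on array medians and no intensity trend. When a fit held just the pair of groups compared, the counts of the 3 comparisons were also 0, and the F-test does not apply. With the replicate block, called counts also stayed at 0, and the medians were 0.03, 0.08 and 0.05 at 30 min, 120 min and 120 against 30 min. Deviations of same-numbered arrays had correlations from -0.17 to 0.23, the highest between replicates 2 at 30 and 120 min. Arrays of different number were not compared, so this cannot decide whether the numbers are pairs. The numbers were not taken as pairs in the main fit.

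Leaving out 1 array at a time, the called counts ranged from 0 to 3 lower at 30 min, 0 to 1 higher at 120 min, 0 to 5 higher at 120 against 30 min and 0 to 5 in the F-test. The values above 0 came without NECA 30 min replicate 2, apart from 1 probe set, Psmd5, called at 120 min and in the F-test without NECA 120 min replicate 1. The median change at 30 min ranged from -0.0264 to 0.1056, the highest without untreated replicate 3, and was -0.01 with no filter, 0.01 with quantile normalization and 0.08 with centred arrays, so its sign depends on these choices. Leaving out arrays, that at 120 min was 0.06 to 0.1, and that of 120 against 30 min -0.01 to 0.1. The median at 120 min was 0.07 with quantile normalization and 0.13 with centred arrays. The rise of Nfe2l2 at 120 min passed under every alternative, while its difference from 30 min (0.53, adjusted p = 0.029) was lost with the block (0.0602) and in 10 other alternatives. The cause of these shifts was not tested. Dim probe sets near the offset limit what could be seen for Psmb9, Psmc4 and Psmd2.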

Other observations

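A further 2 probe sets are annotated to both Psme2 and Psme2b and so were not counted among the members. Psme2 encodes a partner of the Psme1 subunit in the interferon-inducible activator of the core. The one of these that was tested read 212, 247 and 251 in untreated cells, 239, 214 and 148 at 30 min and 235, 173 and 143 at 120 min. Its log2 changes were -0.26 ± 0.20 and -0.38 ± 0.20 (SE, limma adjusted p = 0.672 and 0.401), while Psme1 was at 0.32 ± 0.17 and 0.29 ± 0.17 (SE, adjusted p = 0.596 and 0.434). The difference between the partners was not tested.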
